A study of Mus musculus with 10 samples.

Results

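Levels of 8 genes for transcription factors of the foregut and the pancreatic duct were followed in single-cell RNA-seq of the embryonic mouse pancreas. The genes are the Onecut factors *Onecut1* and *Onecut2*, the forkhead factors *Foxa1*, *Foxa2* and *Foxa3*, the nuclear receptor *Hnf4a*, the homeobox factor *Prox1* and the zinc-finger factor *Gata6*. They were chosen by symbol and are 8 of the 27716 genes listed in every matrix used. Each of the 8 was listed in all matrices. Swiss Webster pancreata were dissociated for 10 min at E12.5, 15 min at E14.5 and 30 min at E17.5. Libraries with the 10x version 1 (v1) kit held all live cells, with 1 library at E12.5, 2 batches at E14.5 and 1 library at E17.5. The E12.5 and E17.5 v1 libraries carry the batch number of the second E14.5 library, so batch 1 held E14.5 cells only. Libraries with the version 2 (v2) kit held live cells negative for CD140a, a mesenchymal surface marker, with 1 library per stage, and the 2 wells at E17.5 were loaded from the same pool and were summed. The eighth library was E14.5 Fev-Cre;ROSA26mTmG, v2, in which *Fev*-driven Cre switches a membrane reporter from tdTomato to GFP and cells of both colours were sorted and loaded together. Each library was a pool of pancreata in which embryos could not be told apart, so the library was the sample (n = 8), and p-values measure the spread between these pools.

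All 8 factors act in endoderm. FOXA proteins open chromatin at liver, gut and pancreas enhancers, and ONECUT1 (HNF6) lies upstream of *Neurog3* in the pancreatic trunk, the domain that gives rise to duct and endocrine cells. HNF4A regulates hepatocyte, gut and islet genes, PROX1 is required for pancreas, liver and lymphatic growth, and GATA6 acts with GATA4 in the early pancreatic bud and is also expressed in mesoderm.

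After barcodes with under 200 genes and 1822 doublets were removed, 56160 cells were left. Clusters were named by marker genes that include none of the 8, and the names are written with "-like". Class levels are given as CPM, the UMIs of a gene over all UMIs of the class in that library, scaled to a common total, and a class needed 20 cells in a library, which gave 102 sums over 15 classes. The E12.5 v1 library had 14 ductal-like and 16 Ngn3+-like cells and the E17.5 v1 library 15 Ngn3+-like cells, which were left out. The E17.5 v2 library had no mesenchymal-like cells, and 4064 epithelial and endocrine cells took no name. Unnamed cells were spread unevenly over the libraries. E12.5 v2 left 1052 epithelial cells (82.9% cycling, median 15761 UMIs) and 566 endocrine cells unnamed. E14.5 v2 left 474 and 664. E17.5 v2 left 197 epithelial cells (30.5% cycling, median 18275 UMIs) and 498 endocrine cells. Whether leaving these cells out moved the stage results was not tested. Libraries held 15671934 to 127151679 UMIs per matrix, with a median of 2952 to 11783 per kept barcode, and haemoglobin genes took up 0.0128% to 60.9% of UMIs. At most 1.79% of barcodes were shared between a pair of libraries. In a class sum, fewer expressing cells and less RNA per cell cannot be told apart.

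*Onecut1* (chromosome 9, bases 74861921 to 74891781, plus strand, mm10) was highest in ductal-like cells. Over 7 libraries its lowest level there was 12.2 CPM, the median 38.3 CPM and the highest 81.7 CPM (mean 42.0 ± 27.2 CPM, SD). Acinar-like cells ranged from 0 to 42.8 CPM with a median of 12.1 CPM (mean 14.4 ± 13.8 CPM, n = 8). The 2 ranges overlapped between libraries, but within each of the 7 libraries that held both classes the ductal-like level was the higher. At E17.5 v1 the acinar-like cells held 0 UMIs, which allows up to 19.0 CPM, above the ductal-like 12.2 CPM. That library therefore shows no direction. No other class had a mean above 3.20 CPM, and delta-like cells held no *Onecut1* UMI in any of 4 libraries. Thinned to 2000 UMIs per cell, 8.46 ± 4.29% of ductal-like and 2.81 ± 2.67% of acinar-like cells had a UMI, against 0.0505% of immune-like cells, which should lack the gene. Cells with fewer UMIs were left out of the thinned shares, 0.781% of ductal-like, 0.566% of acinar-like and 4.75% of immune-like cells over all libraries, and at most 10.5%, 32.5% and 36.5% of a class in 1 library. Without thinning the shares were 25.5%, 13.9% and 0.346%. Median depths were 3881 to 12561 UMIs in ductal-like, 2504.5 to 18131 in acinar-like and 2335 to 8066.5 in immune-like cells.

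*Onecut2*, its paralogue, had another distribution, with its highest mean levels in endocrine classes. Epsilon-like cells had 3.04, 8.11 and 40.6 CPM in 3 libraries. Alpha-like cells ranged from 0 to 36.1 CPM (median 8.73 CPM, n = 8) and beta-like cells from 3.11 to 25.6 CPM (median 7.89 CPM, n = 6). None of the neighbours in its order of 15 classes differed beyond the spread over libraries, taken here as a mean log2 difference within libraries above its SD and of the same sign in every library. Most sums rested on few UMIs, for example 1 UMI in E17.5 v1 alpha-like and 74 in E12.5 v2 alpha-like cells. Acinar-like cells stayed at or below 1.34 CPM in all 8 libraries. Thinned shares were 1.74 ± 2.22% in alpha-like and 3.23 ± 2.57% in beta-like cells, and 0% in immune-like cells.

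*Foxa1* (chromosome 12, bases 57540628 to 57546916, minus strand) was all but undetected. It had 24 UMIs in 23 of 56160 cells (0.0410%). Of the 102 sums 9 held a UMI, with at most 4 UMIs each, and all 9 were epithelial or endocrine classes. No class comparison tested it.

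*Foxa2* (chromosome 2, bases 148042877 to 148046969, minus strand) was found in every epithelial and endocrine class. Fev+-like cells, the endocrine precursors that follow the Ngn3+ state, had 102 to 385 CPM (median 197 CPM, n = 7), and Ngn3+-like cells, the endocrine progenitors, 163 to 254 CPM (median 182 CPM, n = 6). Ductal-like cells had 60.1 to 126 CPM (median 85.2 CPM, n = 7) and acinar-like cells 37.9 to 82.9 CPM (median 67.0 CPM, n = 8). These ranges do not meet between Ngn3+-like and ductal-like cells and overlap between ductal-like and acinar-like cells. Along its order of classes, the step from Ngn3+-like to alpha-like cells and that from acinar-like to neural crest-like cells were beyond the spread, and no other step was. The 7 non-epithelial classes had means of 1.98 to 5.35 CPM. Thinned, 33.0 ± 7.50% of Ngn3+-like, 16.7 ± 4.87% of ductal-like and 0.742 ± 1.16% of immune-like cells had a UMI (58.3%, 41.6% and 2.15% unthinned).

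*Foxa3* (chromosome 7, bases 19013284 to 19023538, minus strand) was highest in Ngn3+-like cells. The 6 libraries gave 207, 228, 346, 381, 508 and 536 CPM (mean 368 ± 137 CPM). Every one of these lay above all acinar-like values, 57.8 to 132 CPM (n = 8), and all ductal-like values, 31.6 to 108 CPM (n = 7). Epsilon-like cells came next with 66.7, 70.4 and 237 CPM, and both the step down from Ngn3+-like to epsilon-like and that from epsilon-like to acinar-like cells were beyond the spread in the 3 shared libraries. Fev+-like cells were down to 22.7 to 166 CPM (median 60.5 CPM, n = 7). Thinned to equal depth, 51.6 ± 13.6% of Ngn3+-like cells had a *Foxa3* UMI, against 12.7 ± 5.46% of Fev+-like and 0.574 ± 0.701% of immune-like cells (79.8%, 22.6% and 1.87% unthinned). Outside the epithelium the highest *Foxa3* mean was 10.9 CPM, in erythroid-like cells, and it rested on the E14.5 v2 library, with 63.3 CPM against 0 to 5.88 CPM in the other 6 libraries (mean 2.20 CPM). The 8 acinar marker genes summed to 13261 CPM in those erythroid-like cells, and to 9364 CPM at E17.5 v2, where *Foxa3* was 2.85 CPM. Mesenchymal-like cells of the E14.5 v2 library reached 36.3 CPM, where the same markers summed to 7377 CPM, against 62.2 to 1049 CPM in the mesenchymal-like cells of the other 6 libraries. The part of acinar RNA in these values was not tested.

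*Hnf4a* (chromosome 2, bases 163506808 to 163572910, plus strand) was low, with means of 5.78 to 16.2 CPM over the 8 epithelial and endocrine classes. Alpha-like cells ranged from 11.6 to 21.6 CPM (median 15.4 CPM, n = 8), acinar-like cells from 2.51 to 14.0 CPM (median 11.0 CPM, n = 8) and ductal-like cells from 2.28 to 13.1 CPM (median 5.57 CPM, n = 7). Only 2 steps in its order were beyond the spread, delta-like over beta-like and epsilon-like over ductal-like cells. Both rest on few UMIs, with 1 to 10 per library in delta-like and 1 to 9 in epsilon-like cells. The 7 non-epithelial classes had means of 0.0526 to 0.537 CPM. Thinned shares were 3.55 ± 1.16% in alpha-like, 1.36 ± 0.640% in ductal-like and 0.141 ± 0.277% in immune-like cells (9.75%, 4.34% and 0.462% unthinned).

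*Prox1* (chromosome 1, bases 190118035 to 190170714, minus strand) had a narrow range in ductal-like cells, from 73.2 to 106 CPM (median 93.5 CPM, mean 90.3 ± 13.1 CPM, n = 7). Ngn3+-like cells ranged from 114 to 265 CPM (median 148 CPM, n = 6), all above the ductal-like values. Epsilon-like cells had 141, 143 and 238 CPM. Acinar-like cells ranged from 0 to 63.6 CPM (median 29.6 CPM, n = 8) and lay wholly below the ductal-like range. Among the 15 classes, only the step from Ngn3+-like to delta-like cells was beyond the spread. Endothelial-like cells had 0 to 28.2 CPM (mean 11.3 CPM, n = 8), the highest of the non-epithelial classes, and there the lymphatic markers *Lyve1*, *Flt4*, *Mmrn1* and *Pdpn* summed to at most 194 CPM. Thinned shares were 27.7 ± 5.96% in Ngn3+-like, 16.8 ± 1.16% in ductal-like, 5.81 ± 4.03% in acinar-like and 0.753 ± 0.635% in immune-like cells (53.4%, 44.1%, 24.4% and 2.50% unthinned).

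*Gata6* was the only one of the 8 with its highest level outside the epithelium. Mesothelial-like cells, the lining of the organ, had 94.5 to 220 CPM (median 167 CPM, n = 8). Ductal-like cells followed with 70.0 to 113 CPM (median 97.6 CPM, n = 7), and this step was the only one beyond the spread, with the mesothelial-like level higher in 7 of 7 libraries. Mesenchymal-like cells had 8.81 to 70.3 CPM (median 55.0 CPM, n = 7), acinar-like cells 12.6 to 64.2 CPM (median 38.8 CPM, n = 8) and beta-like cells 11.1 to 36.2 CPM (median 18.4 CPM, n = 6). Thinned shares were 26.9 ± 7.04% in mesothelial-like, 15.8 ± 2.76% in ductal-like, 8.06 ± 4.09% in mesenchymal-like and 0.794 ± 1.07% in immune-like cells (55.5%, 45.4%, 13.6% and 2.55% unthinned).

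**Figure D1:**
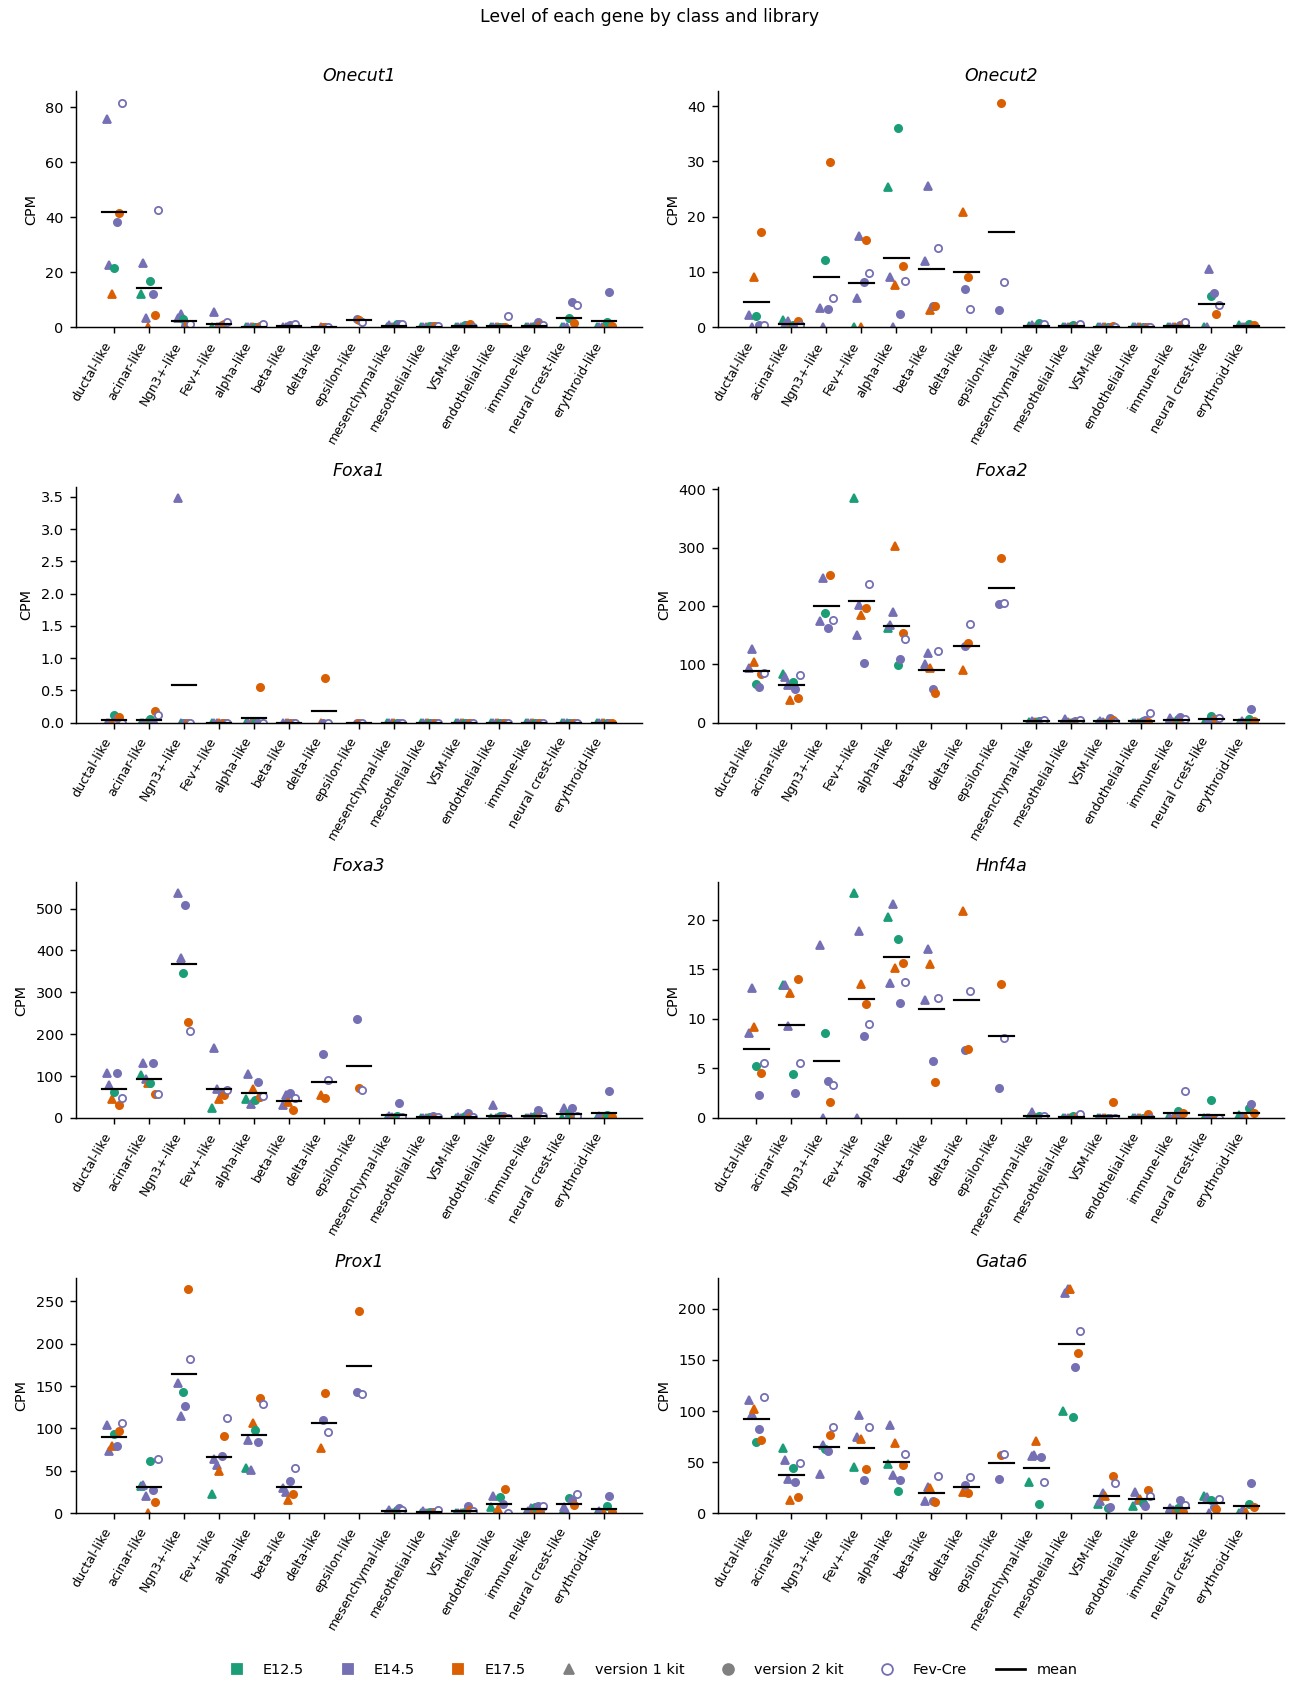
Level of each gene in CPM (linear y axis) by class (x axis), with 1 point per library coloured by stage and shaped by kit, and a black bar for the mean. *Foxa3* peaks in Ngn3+-like cells (207 to 536 CPM), *Onecut1* in ductal-like cells (12.2 to 81.7 CPM) and *Gata6* in mesothelial-like cells (94.5 to 220 CPM), and *Foxa1* lies near 0 in every class.

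Across the 102 sums, *Foxa2* varied most closely with *Prox1* among the 8 (Pearson r of log2(CPM + 10) = 0.90), then with *Foxa3* (r = 0.86) and *Hnf4a* (r = 0.82). Among 8502 genes with a mean of 10 CPM or more, those most like *Foxa2* were *Spint1* (r = 0.98), *Llgl2* and *Stard10* (both r = 0.95), those most like *Foxa3* were *Cldn6* (0.92), *Stard10* (0.91) and *Spint1* (0.90), and those most like *Prox1* were *Spint1* (0.90), *Foxa2* (0.90) and *Smim22* (0.88). *Onecut1* was closest to *Gjb1*, *Gsta3* (both 0.82) and *Ugt2b34* (0.81), and *Gata6* to *Myrf*, *Krt19* (both 0.76) and *Echdc2* (0.75). *Onecut2* was closest to *Syt7* (0.72), *Zfhx2* and *Ttll7* (both 0.71), *Hnf4a* to 2610528J11Rik (0.86), *Pcbd1* (0.84) and *Kif12* (0.83), and *Foxa1*, from its few UMIs, to *Tgm7* (0.68), *Tcf20* (0.41) and *Gm42637* (0.40). Sums of a library share its depth and its free RNA, so these values are a description.

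For *Foxa2* and *Hnf4a* 1 promoter window each is shown, picked because it holds a motif of these factors. A link between the motifs and the levels was not tested. Windows of *Onecut2* and *Gata6* were left out of this search. RefSeq windows on GRCm38.p6, from 250 bases before to 50 bases after an annotated start, were taken for the other 6 genes (10 windows). They were searched on both strands for TGTTTAC (for FOXA, in 3.65% of all 32851 windows), ATCAAT (for ONECUT, 7.54%), AAAGTCCA (for HNF4, 1.25%) and AGATAA (for GATA factors, 11.2%), and capitals mark a match on either strand. The upstream *Hnf4a* start held ATCAAT at -59 and AGATAA at -52 from the start. The *Foxa2* start shown held AGATAA at -183. The first and last bases of each window and its strand are given before the sequence.
*Hnf4a*, upstream start, chr2:163506607-163506906, plus strand: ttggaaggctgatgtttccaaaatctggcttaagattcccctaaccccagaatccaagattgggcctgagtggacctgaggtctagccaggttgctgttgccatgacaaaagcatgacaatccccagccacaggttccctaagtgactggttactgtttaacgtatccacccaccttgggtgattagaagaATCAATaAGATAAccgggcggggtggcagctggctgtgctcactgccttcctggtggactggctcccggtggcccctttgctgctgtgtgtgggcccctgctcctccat
*Foxa2*, chr2:148045415-148045714, minus strand: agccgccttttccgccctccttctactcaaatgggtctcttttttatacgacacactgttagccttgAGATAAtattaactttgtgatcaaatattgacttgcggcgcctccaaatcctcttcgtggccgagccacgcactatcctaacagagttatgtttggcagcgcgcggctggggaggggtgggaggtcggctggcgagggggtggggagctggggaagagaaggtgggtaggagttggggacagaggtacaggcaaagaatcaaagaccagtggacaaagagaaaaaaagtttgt
Another *Foxa2* window held ATCAAT on the opposite strand at -213, the *Foxa1* window held TGTTTAC on the opposite strand at -141, and the *Foxa3*, *Onecut1* and *Prox1* windows, the downstream *Hnf4a* window and the remaining *Foxa2* window held none of the 4. The matches are letters only, and since 3' libraries read the ends of transcripts, the counts do not tell which start was used.

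Acinar-like and ductal-like cells were compared within libraries with edgeR's quasi-likelihood test, blocked by library. Acinar and duct cells descend from the tip and trunk domains, and at E12.5 the names may cover cells of those domains themselves. Calls needed a Benjamini-Hochberg adjusted p under 0.05, over all genes tested, together with a difference of 2-fold or more. The fit scaled each sum by edgeR's TMM factor, whereas CPM uses total UMIs, so a fitted fold can differ from the ratio of the CPM shown. With total UMIs in place of TMM, an alternative chosen after seeing the data, the median over all genes moved by -0.43 (log2) here, by -0.50 in beta-like against Fev+-like cells and by 0.31 in alpha-like against beta-like cells. *Onecut1* was lower in acinar-like cells by a log2 fold of -1.19 ± 0.257 (SE, adjusted p = 0.00366), and *Prox1* by -1.15 ± 0.238 (adjusted p = 0.0029), each lower in 7 of 7 libraries. For *Onecut1* the E17.5 v1 library shows no direction. Its acinar-like cells held no UMI of the gene, which allows up to 19.0 CPM, above the ductal-like level there. *Gata6* (-0.97 ± 0.149, adjusted p = 0.000437) and *Foxa3* (0.86 ± 0.161, adjusted p = 0.00154) passed the p but not the 2-fold limit. *Gata6* crossed it in 4 of 15 alternatives (-1.41 with total UMIs). *Hnf4a* had a log2 fold of 0.81 ± 0.323 (adjusted p = 0.0702) and *Foxa2* of 0.01 ± 0.142 (adjusted p = 0.977), or -0.44 (adjusted p = 0.0618) with total UMIs. Of the 8 genes 6 passed the filter on low counts and 2 were called, both lower, where 14.2% of the 11955 genes tested were called and 8.55% were lower. Of the genes called, 40.0% were higher in acinar-like cells, and 16.3% with total UMIs. The median log2 fold was -0.48 over the 6 and -0.03 over all genes tested. Among 22 related transcription factor genes of the pancreatic epithelium, 19 were tested, with 6 higher and 4 lower in acinar-like cells: *Ptf1a*, a driver of acinar fate, at 5.87, the acinar maturation factor *Bhlha15* at 5.72, *Nkx6-2* at 3.63 and *Gata4* at 3.30 were among the largest differences. The calls of *Onecut1* and *Prox1* rested on the E17.5 v2 library, without which they were -0.87 and -0.89, under 2-fold with adjusted p of 0.00243 and 0.00214.

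In Ngn3+-like against ductal-like cells, *Onecut1* had the largest difference of the tested members. Ngn3+-like cells had 0.468 to 4.76 CPM of it in 6 libraries, against 21.6 to 81.7 CPM in the ductal-like cells of the same libraries, and these ranges do not meet. The log2 fold was -4.77 ± 0.365 (adjusted p = 1.19e-06). *Foxa3* was higher by 2.40 ± 0.103 (adjusted p = 1.79e-08) and *Foxa2* by 1.29 ± 0.111 (adjusted p = 2.81e-06), in 6 of 6 libraries each. *Prox1* was higher by 0.82 ± 0.119 (adjusted p = 0.000148), under 2-fold, and *Gata6* had -0.38 ± 0.149 (adjusted p = 0.0488). Of 5 members tested 3 were called, beside 25.2% of 9499 genes (11.4% higher and 13.8% lower). Among related genes, 4 of 16 rose and 7 fell, with *Ehf* (-4.10), *Nr5a2* (-3.25), the Notch target *Hes1* (-2.99), *Grhl2* (-2.71) and *Nr0b2* (-2.12) farthest. The stomach and intestine list summed to 754 CPM in Ngn3+-like cells at E17.5 v2, led by *Tff2* and *Vil1* with 3 of its 7 genes detected, and to 40.4 to 133 CPM in the other 5 libraries. *Foxa3* in that library was 228 CPM, the second lowest of the 6. The part of that list in the *Foxa3* levels was not tested.

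From Ngn3+-like to Fev+-like cells, 5 libraries held both classes. These were both E14.5 v1 batches, E14.5 v2, the E14.5 Fev-Cre library and E17.5 v2, so E12.5 was not covered. *Foxa3* fell by 2.35 ± 0.188 on the log2 scale (adjusted p = 1.72e-06) and *Prox1* fell by 1.23 ± 0.153 (adjusted p = 5.92e-05), lower in all 5 libraries for both genes. *Hnf4a* had 1.30 ± 0.547 (adjusted p = 0.0794), *Foxa2* -0.37 ± 0.151 (adjusted p = 0.0743), *Gata6* -0.44 ± 0.226 (adjusted p = 0.146) and *Onecut2* 0.06 ± 0.444 (adjusted p = 0.934). Thus 2 of 6 tested were called, both lower, beside 17.9% of 9048 genes (9.24% lower), and 48.5% of the genes called were higher (60.3% with total UMIs). Of 12 related genes 3 rose and 4 fell, with *Mnx1* (4.80), *Tead2* (-4.42), *Sox4* (-2.50), *Hes1* (-2.47) and *Pdx1* (2.45) the farthest. The *Hnf4a* difference was past both limits in 4 of 8 alternatives, which were no low count filter (1.34, adjusted p = 0.0107), no cycling cells (1.44, adjusted p = 0.0273), no E14.5 v1 batch 1 (1.72, adjusted p = 0.0146) and total UMIs (1.46, adjusted p = 0.0483).

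The endocrine classes were compared in pairs. Alpha-like against Fev+-like cells gave no call among 4 tested members by edgeR, beside 4.54% of 5268 genes, of which 64.0% were higher (42.2% with total UMIs). The 1 member at an unadjusted p under 0.05 was *Prox1*, at 0.58 ± 0.131 (adjusted p = 0.00355), under 2-fold. *Foxa2* had -0.06 ± 0.163, *Foxa3* 0.07 ± 0.170 and *Gata6* -0.07 ± 0.171, with adjusted p of 0.819 to 0.823. Under DESeq2 no member was called either. Related genes *Pdx1* (-2.29), *Sox4* (-1.91) and *Nkx6-1* (-1.79) were lower in alpha-like cells, 3 of 4 tested. Beta-like cells had less *Gata6* than Fev+-like cells (-1.10 ± 0.175, adjusted p = 0.000284), 1 of 4 tested, beside 6.71% of 6882 genes (2.48% lower), of which 63.0% were higher (13.1% with total UMIs). *Prox1* (-0.80 ± 0.143) and *Foxa2* (-0.62 ± 0.113) were lower there at under 2-fold, and both were called with total UMIs (-1.31 and -1.06). *Foxa3* had -0.26 ± 0.204 (adjusted p = 0.385), and *Sox4* (-1.10) was the 1 related gene of 8 called. Alpha-like cells exceeded beta-like cells in *Prox1* (1.38 ± 0.163, adjusted p = 1.33e-05) and in *Gata6* (1.02 ± 0.189, adjusted p = 0.000865), 2 of 4 tested, beside 6.34% of 6690 genes (2.88% higher), of which 45.5% were higher (73.5% with total UMIs). *Foxa2* differed by 0.62 ± 0.132 (adjusted p = 0.00255) and *Foxa3* by 0.31 ± 0.177 (adjusted p = 0.241). *Pdx1* (-2.44) and *Nkx6-1* (-2.20), factors of the beta lineage, were the 2 related genes of 6 called. These comparisons share their Fev+-like, alpha-like or beta-like cells. The *Gata6* difference of alpha-like over beta-like cells sat at the 2-fold limit and fell under it in 4 of 14 alternatives, at 0.86 without E17.5 v2, 0.93 without E14.5 v1 batch 1, 0.99 without E17.5 v1 and 0.98 with no low count filter. In E12.5 alpha-like cells the hepatocyte list (*Alb*, *Afp*, *Apoa1*, *Apob*, *Fgb*, *Ahsg*, *Serpina1a*) summed to 506 CPM in v1 and 233 CPM in v2, against 45.5 to 82.0 CPM at later stages. *Onecut2* there was 25.3 and 36.1 CPM, the 2 highest of the 8 alpha-like values, against 0 to 11.0 CPM in the others, and *Hnf4a* was 20.2 and 18.1 CPM, with the others at 11.6 to 21.6 CPM. *Foxa2* was 162 and 99.1 CPM, within the range of the later libraries for v1 and the lowest of 8 for v2. The part of that list in these values was not tested.

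**Figure D2:**
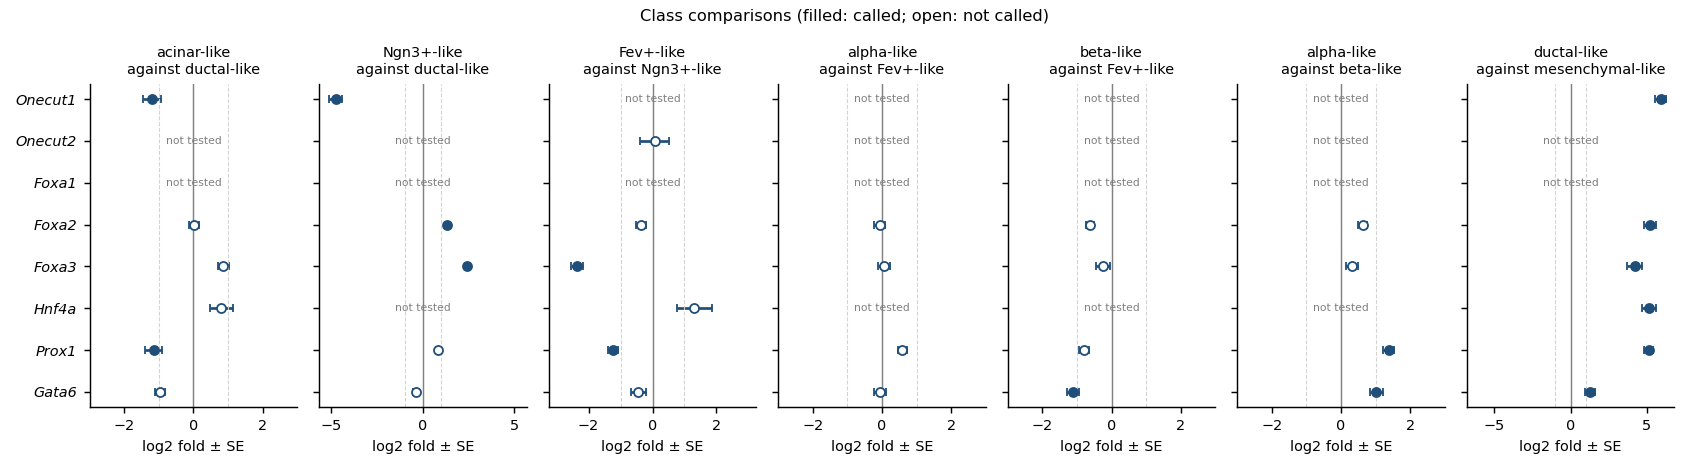
Log2 fold of each member between classes (x axis) with its SE as a bar, from edgeR with the library as a block, 1 panel per comparison. Filled points were called and open points were not, and the largest differences among the epithelial classes are *Onecut1* (-4.77) and *Foxa3* (2.40) in Ngn3+-like against ductal-like cells.

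In mesenchyme, 7 of the 8 genes were near the level of classes that should lack them, and *Gata6* was not. Mean mesenchymal-like levels were 0.596 CPM for *Onecut1*, 0.260 CPM for *Onecut2*, 1.98 CPM for *Foxa2*, 6.81 CPM for *Foxa3*, 0.161 CPM for *Hnf4a* and 2.61 CPM for *Prox1*, and *Foxa1* had no UMI. The immune-like means of these 6 measurable genes were 0.455, 0.231, 4.23, 4.05, 0.537 and 4.70 CPM in the same order. Single libraries raised both *Foxa3* means. Its median was 2.13 CPM and its highest value 36.3 CPM in mesenchymal-like cells, and 2.36 and 19.6 CPM in immune-like cells. All 6 members tested were higher in ductal-like cells: *Onecut1* by 5.90 ± 0.345 (log2, SE), *Foxa2* by 5.22 ± 0.378, *Hnf4a* by 5.15 ± 0.477, *Prox1* by 5.13 ± 0.298, *Foxa3* by 4.19 ± 0.487 and *Gata6* by 1.26 ± 0.311 (adjusted p = 0.00702, the highest of the 6). That compares with 26.4% of 11528 genes called and 12.7% higher. Of 16 related genes 10 were higher, among them *Grhl2* (6.54), *Ehf* (6.35), *Nkx6-1* (5.61) and *Nr0b2* (4.86), and 1 was lower. Without the E12.5 v2 library *Gata6* was 0.90, under 2-fold.

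Within the mesenchyme, *Gata6* separated the classes. It was higher in mesothelial-like than in mesenchymal-like cells in 7 of 7 libraries, by 2.06 ± 0.203 (adjusted p = 1.35e-05), beside 14.1% of 10929 genes called (8.16% higher). *Gata6* was the 1 member tested. *Gata4*, its paralogue, was higher too (3.88), and *Hes1* (-3.10) and *Ptf1a* (-1.66) were lower, 3 of 9 related genes. The v1 libraries gave mesothelial-like levels of 100, 216, 220 and 219 CPM at E12.5, in both E14.5 batches and at E17.5, and mesenchymal-like levels of 30.7, 56.3, 56.6 and 70.3 CPM in the same order. In v2, where the CD140a sort had removed most mesenchyme, mesothelial-like cells had 94.5, 143 and 156 CPM over the 3 stages and the mesenchymal-like cells left had 8.81 and 55.0 CPM. The Fev-Cre library, E14.5 and v2 but of another strain and sort, had 30.8 CPM in mesenchymal-like cells, as low as E12.5 v1. In Swiss Webster libraries E12.5 was the lowest stage in both classes and with both kits. Vascular smooth muscle (VSM)-like cells, with 5.45 to 36.3 CPM (median 14.2 CPM, n = 8), were lower than mesenchymal-like cells by a log2 fold of -1.43 ± 0.297 (adjusted p = 0.00419), beside 5.48% of 8551 genes (2.78% lower). Of 6 related genes 4 had an unadjusted p under 0.05, all under 2-fold, and edgeR called 0. This call depended on the clusters: it was -0.27 (adjusted p = 0.719) at the finer resolution, and 0.53 (adjusted p = 0.657) when classes were drawn on 50% of the UMIs and sums on the rest. The epithelial marker list summed to 190 to 872 CPM in mesothelial-like cells, mostly *Krt8* and *Krt18*, and *Foxa2* was 0 to 6.06 CPM there. The part of that list in the *Gata6* level was not tested.

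**Figure D3:**
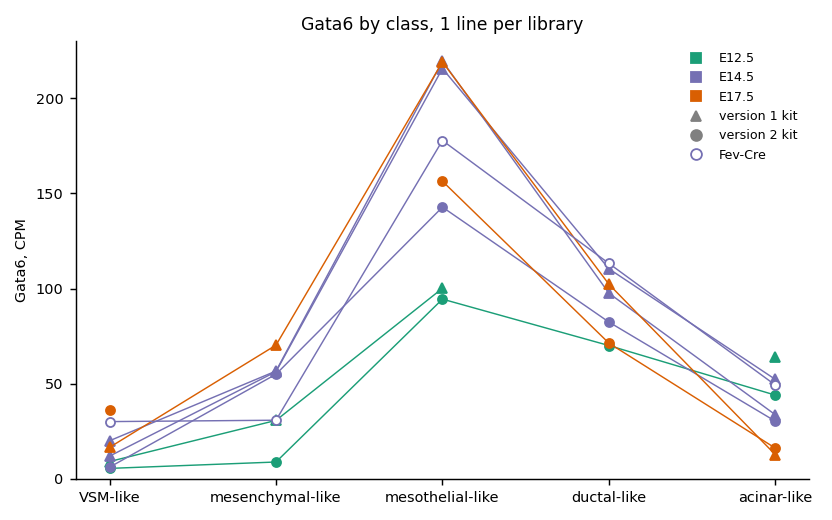
*Gata6* in CPM (linear y axis) in 5 classes, with 1 line per library coloured by stage and shaped by kit. In each of the 7 libraries with both classes the mesothelial-like point lies above the mesenchymal-like point, and the 2 E12.5 libraries have the lowest mesothelial-like values, 94.5 and 100 CPM.

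Stage was compared as E17.5 against E12.5 with the kit as a term and the Fev-Cre library left out. Dissociation took 10 min in every E12.5 library and 30 min in every E17.5 library. Stage and dissociation time therefore cannot be told apart in this or any later stage result. In ductal-like cells 1 of 7 tested members was called, beside 6.34% of 13381 genes (3.98% higher). *Onecut2* had 1.97 CPM at E12.5 v2 (95% Poisson interval 1.35 to 2.76, counting error only), 2.15, 0 and 0.380 CPM in the 3 E14.5 libraries, 9.16 CPM at E17.5 v1 (3.36 to 19.9) and 17.2 CPM at E17.5 v2 (15.8 to 18.7). Both E17.5 values lay above all earlier ones, and the log2 fold was 2.89 ± 0.848 (adjusted p = 0.0249). The call rested on 1 E12.5 library, whose spread is assumed to be that of the others, and on E17.5 v2. It was lost in 6 of 13 alternatives. Without E17.5 v2 it was 0.50 (adjusted p = 0.961), and the other 5 gave 2.59 to 2.82, with adjusted p of 0.245 under DESeq2, 0.172 with Fev-Cre added, 0.109 with total UMIs, 0.0825 with classes drawn on 50% of the UMIs and 0.0517 at the finer resolution. Thinned, 3.25% of ductal-like cells at E17.5 v2 had an *Onecut2* UMI (76 of 2342), against 0.445% at E12.5 v2 (8 of 1799). The other 6 tested members had log2 folds from -0.69 (*Foxa3*) to 0.66 (*Onecut1*), with adjusted p from 0.523 to 0.995, with *Foxa2* at 0.29 ± 0.402, *Gata6* at 0.18 ± 0.404, *Prox1* at 0.03 ± 0.399 and *Hnf4a* at -0.31 ± 0.751. *Onecut1* turned to -0.99 (adjusted p = 0.558) without E17.5 v2. Over the same span 3 of 21 related genes rose and 7 fell, with *Nkx6-2* (-8.68), its family member *Nkx6-1* (-3.34), the third Onecut paralogue *Onecut3* (-6.74), *Mnx1* (-4.69) and *Ehf* (4.28) the farthest.

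In acinar-like cells *Hnf4a* rose by 2.04 ± 0.573 (adjusted p = 0.0216) and *Prox1* fell by 1.53 ± 0.470 (adjusted p = 0.0349), 2 of 6 tested, beside 15.9% of 11662 genes (8.94% higher and 6.96% lower). With total UMIs the median over all genes moved by -0.68, and 16.8% of the genes called were higher in place of 56.2%. The *Hnf4a* change was seen in v2, from 4.44 CPM at E12.5 (3.49 to 5.56) through 2.51 CPM to 14.0 CPM at E17.5 (12.6 to 15.7). In v1 the values were 13.4 CPM at E12.5 (6.41 to 24.6), 13.4 and 9.28 CPM at E14.5 and 12.6 CPM at E17.5, the last from 2 UMIs (1.53 to 45.7), so no rise was seen with that kit. *Prox1* was lower at E17.5 with both kits, from 61.9 CPM through 27.2 CPM to 12.7 CPM in v2 and from 32.1 CPM through 33.4 and 20.9 CPM to 0 UMIs in v1. The 40 acinar-like cells at E17.5 v1 held 158232 UMIs, in which a count of 0 allows up to 19.0 CPM. Haemoglobin genes took 12.53% of the UMIs of those cells, against 0.0246% in E12.5 v1 acinar-like cells, and 1.58% against 0.0662% in v2. In ductal-like cells they took 4.83% at E17.5 v1, and 1.03% at E17.5 v2 against 0.0668% at E12.5 v2. Their part in the stage results was not tested. Without E17.5 v2 the *Hnf4a* fold was 0.18 (adjusted p = 0.996), and without E12.5 v2 neither gene was called (adjusted p = 0.31 for *Hnf4a* and 0.455 for *Prox1*). *Hnf4a* also missed the limit without E12.5 v1 (1.98, adjusted p = 0.0694) and with total UMIs (1.35, adjusted p = 0.0811), and *Prox1* without cycling cells (-1.43, adjusted p = 0.0975) and without E17.5 v2 (adjusted p = 0.167), where the fitted -11.11 rests on the 0 UMIs of E17.5 v1 and is no bound. Without E14.5 v1 batch 1, which leaves 1 batch in v1, *Hnf4a* was 2.05, *Prox1* -1.65 and *Onecut1* -1.46 (adjusted p = 0.000235, 0.000714 and 0.0182). *Onecut1* (-1.20 ± 0.678), *Gata6* (-0.90 ± 0.387) and *Foxa3* (0.16 ± 0.324) did not pass, with adjusted p of 0.248, 0.125 and 0.789, nor did *Foxa2* (-0.15 ± 0.328). With total UMIs *Onecut1* (-1.90) and *Gata6* (-1.58) were called and *Foxa3* was -0.49 (adjusted p = 0.267). Of 21 related genes 4 rose and 6 fell, among them *Onecut3* (-6.54), *Bhlha15* (4.95), *Mnx1* (-4.08), *Nkx6-1* (-3.04) and *Nkx6-2* (-2.40).

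The change over stage was then compared between the 2 classes in a single fit with library as a block. E12.5 was the v2 library alone, because E12.5 v1 held too few ductal-like cells, so its spread is assumed to be that of the other stages. The E17.5 v1 acinar-like cells held 0 UMIs of *Onecut1* and of *Prox1* and 2 of *Hnf4a*, so the values compare in the main 1 pool per stage. For *Onecut1* the v2 level went from 16.8 CPM to 4.31 CPM in acinar-like cells and from 21.6 CPM to 41.7 CPM in ductal-like cells. In v1 the ductal-like level was 75.9 and 22.5 CPM in the E14.5 batches and 12.2 CPM at E17.5, from 8 UMIs, so the later level was not the higher with that kit. The fitted difference between the 2 changes was -2.25 ± 0.385 (log2, adjusted p = 2.48e-07). For *Prox1* it was -1.73 ± 0.326 (adjusted p = 4.14e-06), with ductal-like levels of 93.5 CPM and 96.4 CPM at the ends of the series. For *Hnf4a* the difference was 2.42 ± 0.470 (adjusted p = 7.96e-06), with ductal-like levels of 5.19 CPM and 4.56 CPM. *Foxa3* in v2 had 82.5 CPM and 57.8 CPM in acinar-like and 62.7 CPM and 31.6 CPM in ductal-like cells at the same stages, a difference of 0.47 (log2) on the CPM scale, and the fitted difference was 1.08 ± 0.305 (adjusted p = 0.00416). The *Foxa3* call depended on the scaling, at 0.47 (adjusted p = 0.133) with total UMIs. So 4 of 7 tested members were called, 2 of them higher and 2 lower in the acinar-like change, beside 17% of 14414 genes (9.71% higher and 7.33% lower). *Foxa2* had -0.48 ± 0.307 (adjusted p = 0.291), *Onecut2* -0.88 ± 0.976 (adjusted p = 0.585) and *Gata6* -0.88 ± 0.323 (adjusted p = 0.0346, under 2-fold). With total UMIs the median over all genes moved by -0.64 and 15.4% of the genes called were higher in place of 57.0%. *Onecut1* (-2.92), *Prox1* (-2.37) and *Hnf4a* (1.77) were called there too, as were *Gata6* (-1.51) and *Foxa2* (-1.08). Of 22 related genes 4 were higher and 3 lower, with *Nkx6-2* (6.01), *Ptf1a* (4.26), *Bhlha15* (2.83), *Ehf* (-2.22) and *Nr0b2* (-2.19) the farthest. None of the 4 member calls held without E17.5 v2, and *Foxa3* was also lost without E14.5 v1 batch 1 (adjusted p = 0.0605) and without E14.5 v2 (adjusted p = 0.0873). Without E17.5 v2 *Onecut1* had an adjusted p of 0.555. Beside these changes, the 8 acinar markers went from 13877 CPM to 180817 CPM in v2 acinar-like cells, and the stomach and intestine list from 3.31 CPM to 207 CPM. Their part in the results was not tested.

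**Figure D4:**
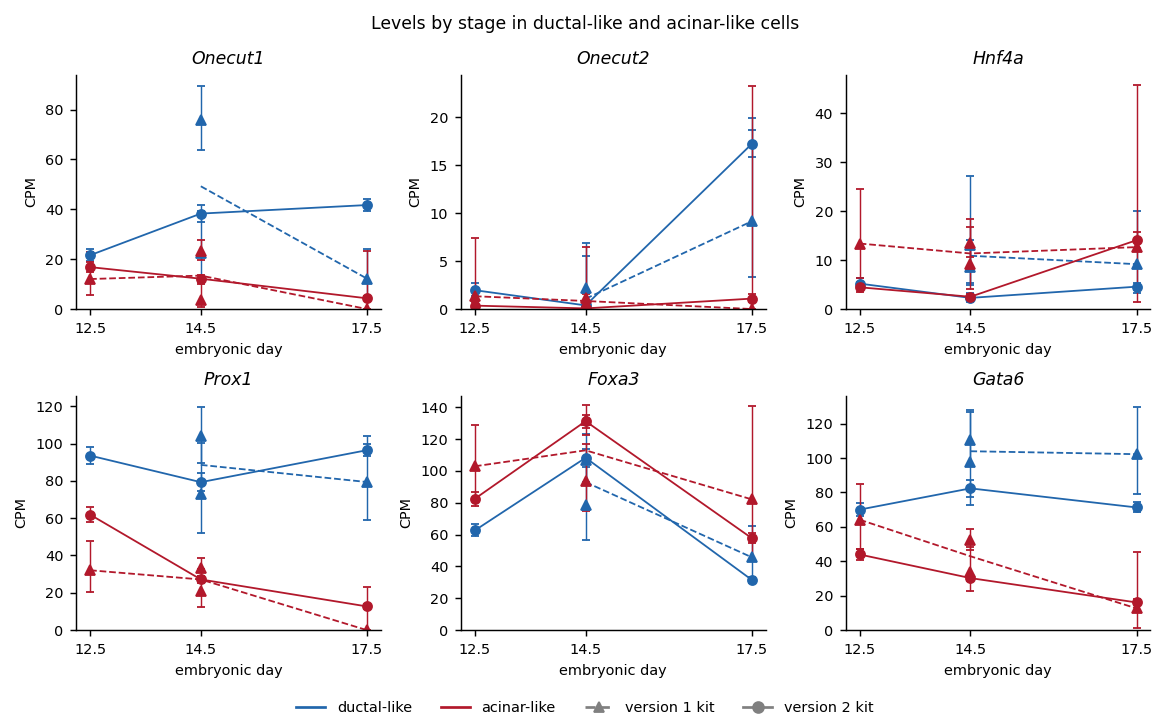
CPM (linear y axis) against embryonic day in ductal-like (blue) and acinar-like (red) cells, with 1 point per library, triangles and dashed lines for v1 and circles and solid lines for v2. In v2 the *Onecut1* lines part between E12.5 and E17.5, to 41.7 CPM in ductal-like and 4.31 CPM in acinar-like cells, and the *Prox1* lines part to 96.4 CPM and 12.7 CPM.

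In mesenchymal-like cells, where E17.5 was 1 v1 library, no member of 4 tested was called by edgeR, beside 5.55% of 12907 genes. *Gata6* had 1.92 ± 0.499 (adjusted p = 0.0598, unadjusted p = 0.00375), the 1 member under an unadjusted 0.05. It was called in 10 of 13 alternatives, with log2 folds of 1.53 to 3.26, among them DESeq2 (1.98, adjusted p = 0.0311), no low count filter (1.87, adjusted p = 0.000318) and each library that could be left out, and not without cycling cells (adjusted p = 0.196), with Fev-Cre added (0.0948) or with total UMIs (0.127). *Foxa3* had 0.79 ± 1.77, *Foxa2* 0.66 ± 1.37 and *Prox1* 0.26 ± 1.65, with adjusted p of 0.871 to 0.966. Of the genes called 81.1% were higher, and 70.3% with total UMIs. Among related genes *Sox4* (-2.60) fell and *Hes1* (2.40) rose, 2 of 15. Haemoglobin took 7.15% of mesenchymal-like UMIs at E17.5 v1 and 0.550% at E12.5 v1, and its part was not tested. The CD140a sort, which differs between the kits, was not separated from the kit in this fit.

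*Prox1* has an antisense neighbour, *Prox1os*, whose annotated gene overlaps it by 419 bases, 133 of them exonic. It had 2336 UMIs against 20794 for *Prox1*, and its log2 folds were -1.17 ± 0.292 in acinar-like against ductal-like cells (adjusted p = 0.00841), 1.52 ± 0.216 in Ngn3+-like against ductal-like cells (adjusted p = 0.000125) and -2.64 ± 0.875 over stage in acinar-like cells (adjusted p = 0.0476). These had the sign of the *Prox1* differences. *Hnf4aos* had 10 UMIs in all, and its annotated exons share 0 bases with those of *Hnf4a*. The overlap of *Prox1* and *Prox1os* lies at the annotated start of both genes, whereas 3' libraries read the ends of transcripts. The sources used here do not say how strand was handled in counting, so any reads of the 133 shared exonic bases cannot be told apart.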

How the data were processed

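UMI counts for each gene and barcode were deposited by the authors, and 9 of their matrices, from 8 libraries, were used without change. Per the labels' processing notes, reads were processed with Cell Ranger 1.1 (v1 kit) or 2.1 (v2 kit) on mm10, to which the reporter sequences had been added for the Fev-Cre matrix used. The alignment of the same Fev-Cre cells without reporter sequences was not used. There were 0 other per-sample columns. Matrices list 27775 (v1), 27998 (v2) and 28694 (Fev-Cre) genes.

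Of 66017 barcodes, 57982 with 200 or more genes were kept. The v1 libraries were clustered together, and each v2 library and the Fev-Cre library on its own. The classes compared between v2 stages were therefore drawn separately. Clustering was done in Python 3.11.15 with leidenalg 0.10.2 and igraph 0.11.9 on log counts. It used 2000 variable genes, 20 principal components and 20 neighbours at resolution 1, first by compartment and then within it. A compartment (epithelium, mesenchyme, endothelial, immune, neural crest or erythroid) was given by the marker list nearest its top level over the clusters. At least 3 of its markers had to be found in 10% of the cluster, with no limit on fold or score. Endothelial-like, immune-like, neural crest-like and erythroid-like cells kept that name. Within epithelium and mesenchyme, a cluster was named by the marker list with the highest mean log2 fold over the remaining cells. That mean had to be at least 0.3, with no other list within 85% of it. Also, 3 or more of its markers had to be 1.5-fold higher and found in 10% of the cluster. The mesothelial and VSM names needed a score of 1 and 25% of cells, and mesenchyme clusters that took neither were called mesenchymal-like. These score limits were set after clusters had been seen, as was leaving keratins out of the doublet markers. Doublets were cells with markers of 2 of the epithelial, mesenchymal, endothelial and immune compartments (0.195% to 6.90% of a library). Doublets with erythroid or neural crest cells were not screened for. The 8 genes and the related list were in no marker list and not among the variable genes.

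UMIs were summed per library and class with 20 or more cells and tested with edgeR 4.0.16 under R 4.3.3 (TMM scaling, low counts filtered, quasi-likelihood F test), with calls at 2-fold or more and an adjusted p under 0.05. Class comparisons were blocked by library, because 1 suspension gave all classes of a library. As a check, deviations of the 2 classes correlated best within their own library for every library and all 9 class comparisons, for example at 0.259 to 0.699 within and 0.323 at most between libraries for acinar-like and ductal-like cells. Stage comparisons had the kit as a term and 2 or 3 residual degrees of freedom. The SE is the size of the log2 fold over the root of F. Intervals are exact (Poisson or Clopper-Pearson, 95%), cover counting error only, and a count of 0 was bounded by 3 counts. For detection, cells were thinned to 2000 UMIs, and 1420 of 51973 cells with fewer were left out of the thinned shares.

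On simulated counts with 200 genes changed by 2 on the log2 scale, the acinar-like against ductal-like fit recovered 97.5% (12115 genes, 0 false calls), the ductal-like stage fit 80% (13240 genes, 3 false calls) and the fit of the difference between stage changes 17.5% (14046 genes, 2 false calls). The simulation had a single fixed dispersion and the same mean profile in every sum, and changed no gene of low expected count. Its shares therefore do not hold for genes of few UMIs or for the spread of these data.

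The text names every member tested in each comparison, their antisense genes, the called genes of the related list (at most the 5 with the largest difference), 1 of which is not reported here, and the 3 genes most like each member. The members and the lists were chosen with earlier results of these data known. Positions are from GENCODE M21 on GRCm38, which is not the annotation the counts were made with. DESeq2 1.42.0, no low count filter, no cycling cells, doublets kept, resolution 2, classes drawn on 50% of the UMIs, no block, the Fev-Cre library added and each library left out were tried as alternatives, and scaling to total UMIs without TMM was added after seeing the data.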

Additional observations from a re-analysis of the deposited data

Results flagged for a closer look

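For 4 of the 7 members tested, the fitted change from E12.5 to E17.5 in acinar-like cells and that in ductal-like cells passed a test of their difference. The same test was passed by 17% of the 14414 genes tested. E12.5 was 1 library in this fit, with its spread taken from the other stages, and no call held without E17.5 v2, so the values rest in the main on 1 pool per stage. The acinar-like change minus the ductal-like change was -2.25 for *Onecut1*, -1.73 for *Prox1*, 2.42 for *Hnf4a* and 1.08 for *Foxa3* on the log2 scale. The adjusted p by edgeR were 2.48e-07, 4.14e-06, 7.96e-06 and 0.00416. Scaled to total UMIs without TMM, they were -2.92, -2.37, 1.77 and 0.47, the last with an adjusted p of 0.133. Without the E17.5 v2 library the differences were -9.20 for *Onecut1* and -11.66 for *Prox1*, where the E17.5 v1 acinar-like cells then left held 0 UMIs of either gene, 0.97 for *Hnf4a* and 0.73 for *Foxa3*, with adjusted p of 0.555, 0.0508, 0.817 and 0.57. No group of the labels held 4 samples, so single samples were not screened for outlying values.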

How the results depend on the processing

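Over 61 member results and 829 alternative values, 771 kept their side of the threshold, 30 lost a call, 27 gained one and 1 was reversed. Of the 771, 39 had the other sign with no call on either side. Leaving out E17.5 v2 accounted for 10 of the 30. The reversed value was *Gata6* in VSM-like against mesenchymal-like cells, 0.53 with classes drawn on 50% of the UMIs. Without the low count filter the genes called were 4190 for Ngn3+-like against ductal-like (2394 with it), 2531 for Fev+-like against Ngn3+-like (1623), 1038 for alpha-like against Fev+-like (239), 1011 for beta-like against Fev+-like (462), 1154 for alpha-like against beta-like (424), 4792 for ductal-like against mesenchymal-like (3047), 2788 for mesothelial-like (1541) and 963 for VSM-like against mesenchymal-like (469), and 1277 for mesenchymal-like stage (716). With classes drawn on 50% of the UMIs, and so fewer UMIs tested, they were 1095 for acinar-like against ductal-like (1702), 806 for Fev+-like against Ngn3+-like, 133 and 291 for alpha-like and beta-like against Fev+-like, 105 for VSM-like against mesenchymal-like and 509 for ductal-like stage (849). Without cycling cells they were 926 for acinar-like against ductal-like, 414 for alpha-like against Fev+-like, 231 for VSM-like against mesenchymal-like, 1109 for acinar-like stage (1855) and 1328 for the difference between stage changes (2455). Resolution 2 gave 470 for alpha-like against Fev+-like and 293 for VSM-like against mesenchymal-like. DESeq2 gave 533 for ductal-like stage and 748 for the difference, and with Fev-Cre added ductal-like stage gave 276. Scaling to total UMIs without TMM, added after seeing the data, gave 2576 for acinar-like against ductal-like, 937 for beta-like against Fev+-like, 3519 for acinar-like stage and 4293 for the difference. The causes were not tested.

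Leaving out 1 library gave 223 to 416 for alpha-like and 291 to 594 for beta-like against Fev+-like, 260 to 583 for alpha-like against beta-like, 223 to 3015 for acinar-like stage, 332 to 1126 for mesenchymal-like stage and 269 to 2776 for the difference. The libraries that moved a count by over 1.5 times were E12.5 v1 (416), both E14.5 v1 batches (384 and 390) and E17.5 v1 (402) for alpha-like against Fev+-like, E17.5 v2 for beta-like against Fev+-like (291), E14.5 v2 (264) and E17.5 v2 (260) for alpha-like against beta-like, E12.5 v2 (590), E14.5 v1 batch 1 (3015) and E17.5 v2 (223) for acinar-like stage, E12.5 v1 (332), E14.5 v1 batch 1 (1117) and E14.5 v2 (1126) for mesenchymal-like stage, and E14.5 v1 batch 1 (1240), E14.5 v2 (1194) and E17.5 v2 (269) for the difference. Where a stage was left with 1 library, it was assumed to vary like the others. Ductal-like stage and the difference could not be fitted without E12.5 v2, nor mesenchymal-like stage without E17.5 v1.

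Without the replicate block, VSM-like against mesenchymal-like gave 304 calls, *Gata6* there was -1.59 (adjusted p = 0.0597), and *Onecut1* in acinar-like against ductal-like cells was -1.04 (adjusted p = 0.143). No other call of a member changed. No paired analysis was run for the stage comparisons, and no term for batch was fitted. The 3 v1 stages share batch number 2 only, with 1 library each. Unthinned, 107 of 120 shares of cells with a UMI were higher.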
